A study of Mus musculus with 6 samples.

Results

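Npm1 and 58 other genes whose products work in the nucleolus on the making of ribosomes were followed in sequenced RNA from tumor-associated macrophages (TAMs) of the mouse. The 59 members were taken by gene symbol from the deposited table of 22377 genes, and all 59 had enough counts to be tested. The rule is a list of names and holds no threshold on values, but the list was drawn up with earlier results of these data known. They fall into 6 groups by role. These are RNA polymerase I (Pol I) transcription with 7 genes, nucleolar chaperones and scaffolds with 6, box C/D small nucleolar ribonucleoproteins (snoRNPs) with 4, box H/ACA snoRNPs with 4, assembly of the small ribosomal subunit with 20 and assembly of the large subunit with 18.

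The series holds 6 libraries, of which 3 carry the label wt and 3 carry the labels ko and knockdown. The paper describes TAMs from Npm1+/+ and Npm1+/- mice, male and female, that bore subcutaneous tumors of the Lewis lung carcinoma (LLC) cell line. The mice were 6 to 8 weeks old when tumor cells were implanted. The cells were gated as CD45+, CD11b+ and F4/80+, which are markers of leukocytes, myeloid cells and mouse macrophages. In Npm1+/- mice 1 copy of the gene is lost in every cell type of the host and not only in macrophages, and loss of both copies is lethal in the embryo. The labels themselves give no genotype, name tumor tissue as the material and describe a small RNA protocol, which was not reconciled with the paper, so the groups are called wt and ko below. The sexes, ages and tumors of the single libraries are not given in the labels. Each library is labelled as a separate biosample, but beside a plot of these data the paper gives fewer mice per group than there are libraries, and which libraries came from separate mice is not given in the labels. The p-values therefore measure only the spread between these samples.

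Ribosomes are built mainly in the nucleolus. Pol I transcribes a long precursor RNA there, small nucleolar RNAs (snoRNAs) in complex with proteins guide its chemical modification and cleavage, and assembly factors, helicases and GTPases then fold the pieces with ribosomal proteins into the small and the large subunit. NPM1, nucleophosmin, is an abundant phosphoprotein and histone chaperone of the outer, granular zone of the nucleolus, where late steps of large subunit assembly take place. In vertebrates most snoRNAs lie in introns of protein-coding genes and are cut out of the spliced introns, and many of these host genes encode proteins of ribosome biogenesis or translation.

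Of the 59 members, 8 hold snoRNA genes within their own bounds and on their own strand in the GENCODE annotation of GRCm38, which is the assembly that the submitters' processing notes call mm10. The 8 are Taf1d, Ncl, Gnl3, Nop56, Nop58, Dkc1, Wdr43 and Tsr1, and they hold 29 snoRNA genes, of which 18 overlap an annotated exon of a host transcript. The 8 were singled out after their values had been seen, because they include most of the members with the largest differences below. Box C/D snoRNAs are recognised by short sequence boxes near their ends, and in the 5 sequences below a box C (TGATGA) and a box D (CTGA) are in capitals, 5′ to 3′ as DNA letters of the GENCODE transcripts. They are shown because each lies inside a member with a difference described below, and because NOP56 and NOP58, both host gene products, are themselves core proteins of the particles that such snoRNAs form.
Snord82, inside Ncl (chr1:86356261-86356330, minus strand): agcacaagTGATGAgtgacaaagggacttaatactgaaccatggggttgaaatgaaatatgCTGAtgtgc
Snord11, inside Nop58 (chr1:59704790-59704873, plus strand): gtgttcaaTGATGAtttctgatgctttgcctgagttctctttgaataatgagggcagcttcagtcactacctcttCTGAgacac
Snord110, inside Nop56 (chr2:130275506-130275573, plus strand): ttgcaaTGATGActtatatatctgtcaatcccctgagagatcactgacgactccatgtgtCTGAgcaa
Snord69, inside Gnl3 (chr14:31014287-31014366, minus strand): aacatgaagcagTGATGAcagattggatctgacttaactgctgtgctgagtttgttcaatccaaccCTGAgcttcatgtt
Snord92, inside Wdr43 (chr17:71631281-71631365, plus strand): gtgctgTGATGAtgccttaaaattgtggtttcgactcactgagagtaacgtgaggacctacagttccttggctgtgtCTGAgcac
The snoRNAs themselves are not listed in the count table, so only the level of the host transcript is given here. How reads on the 18 snoRNAs that overlap an exon were counted is not given in the sources used here.

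Total counts ranged from 36550775 to 38147320 per library, and single members had between 197 and 32979 counts in a library. Values below are counts scaled to a common library size by the TMM method (CPM), and deposited FPKM, which also divides by gene length, is used wherever genes are compared with each other. wt replicate 1 stood apart from the other 5 libraries: the first principal component of log2 CPM over all genes held 68.0% of the variance, with wt replicate 1 at -108 and the others between -4.54 and 52.0. Results for the members as a set, for the roles and for some single genes are therefore also given without it. The macrophage genes Ptprc, Itgam, Adgre1, Csf1r, Cd68 and Lyz2 were all present. Their summed level, mostly Lyz2, ran from 15254 to 20561 CPM in the wt and from 9110 to 15227 CPM in the ko libraries. In bulk RNA, fewer cells of a type and less RNA of it per cell cannot be told apart.

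Npm1, the gene that the study targets, was not lower in the ko libraries. It lies on chr11:33152287-33163206 (GRCm38, minus strand) and overlaps no other protein-coding gene there. Its level was 142, 380.2 and 381 CPM in wt replicates 1, 2 and 3, and 441, 499 and 343 CPM in ko replicates 1, 2 and 3. The groups overlapped, since ko replicate 3 was below wt replicates 2 and 3, and wt replicate 1 was the lowest of all. The log2 fold change of ko over wt was 0.51 ± 0.36 (SE, n = 3 against 3), with an adjusted p of 0.436 by edgeR's quasi-likelihood F-test, adjusted by the Benjamini-Hochberg method across 13884 genes. The exact two-sided permutation test over the libraries gave p = 0.3, where 3 against 3 cannot go below 0.1. Without wt replicate 1 the log2 fold change was 0.16 ± 0.18. The RNA level thus did not separate the groups in the direction of their labels, and wt and ko below stand for the libraries labelled wt and ko, so that each direction rests on the labels alone. Npm1 has processed copies elsewhere in the genome, and how reads shared with such copies were counted is not given in the sources used here.

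Among the members, Npm1 had the highest level per length in all 6 libraries. Its deposited FPKM was 216 ± 85.3 (SD over 6 libraries), from 77.1 in wt replicate 1 to 333 in ko replicate 2. Ncl (60.4 ± 29.5 FPKM), the rRNA-binding protein nucleolin, Fbl (55.8 ± 8.12 FPKM), the snoRNP methyltransferase fibrillarin, and Emg1 (52.2 ± 4.15 FPKM), a methyltransferase of small subunit rRNA, came next and did not differ from each other beyond their spread over the libraries. The order changed between libraries, as Ncl was second in wt replicate 3 and in all 3 ko libraries, the fourth in wt replicate 2 and the 15th in wt replicate 1. The lowest mean of the members was that of Wdr12, at 1.65 FPKM. The members together took 0.218% of all counts in wt replicate 1 and 0.278% and 0.289% in wt replicates 2 and 3, against 0.392%, 0.476% and 0.313% in the ko libraries. The 2 groups did not overlap in this share.

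The question of the comparison is which genes differ between TAMs of the ko and the wt group. Of the 59 members, 46 had a higher and 13 a lower estimate in the ko libraries, against 7228 higher and 6656 lower of the 13884 genes tested, and no member passed an adjusted p of 0.05 by edgeR's quasi-likelihood test, where 0% of all genes tested passed. At an unadjusted p under 0.05, 20 members were higher, where 6.90% of all genes tested were, and 0 were lower, where 8.31% of all genes tested were. The number of higher members at that p changed with single libraries. It was 7 without ko replicate 1, where 2.75% of genes passed in that direction, and 5 without ko replicate 2, where 1.81% did. It was 14 without wt replicate 3, against 8.83% of genes, and 26 without ko replicate 3, against 7.39%. The median log2 fold change of the members was 0.30, against 0.02 over all genes tested, and single values ran from -0.25 for Heatr1 to 0.96 for Ncl. Every ko library was above every wt library for 24 members, against 13.3% of all genes tested, and the reverse held for 0 members, against 12.6%. Without ko replicate 3, this count of members with every ko library above every wt library was 43, against 26.9%. DESeq2 called 2 members higher, Taf1d and Nop56, where it called 0.331% of the genes to which it gave an adjusted p.

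Without wt replicate 1 the members lay closer to 0 but more of them had a higher estimate. The median log2 fold change was then 0.26, against 0.03 over all genes, and 54 of 59 estimates were higher. edgeR gave 16 members an unadjusted p under 0.05, all higher, against 6.81% of the genes tested, and 31 members had ko libraries that were all above the other wt libraries, against 16.6%. No member was called by edgeR or by DESeq2 in these 5 libraries, where DESeq2 called 0.288% of genes higher. In a further fit to 4 libraries, which leaves out wt replicate 1 and ko replicate 3 and was chosen with earlier results known, DESeq2 called 12 members higher and 0 lower, against 4.66% of genes called higher. The 12 were Polr1b, Taf1d, Ncl, Gnl3, Nop56, Nop58, Rrp9, Wdr43, Wdr75, Tsr1, Rrs1 and Gtpbp4.

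**Figure D1:**
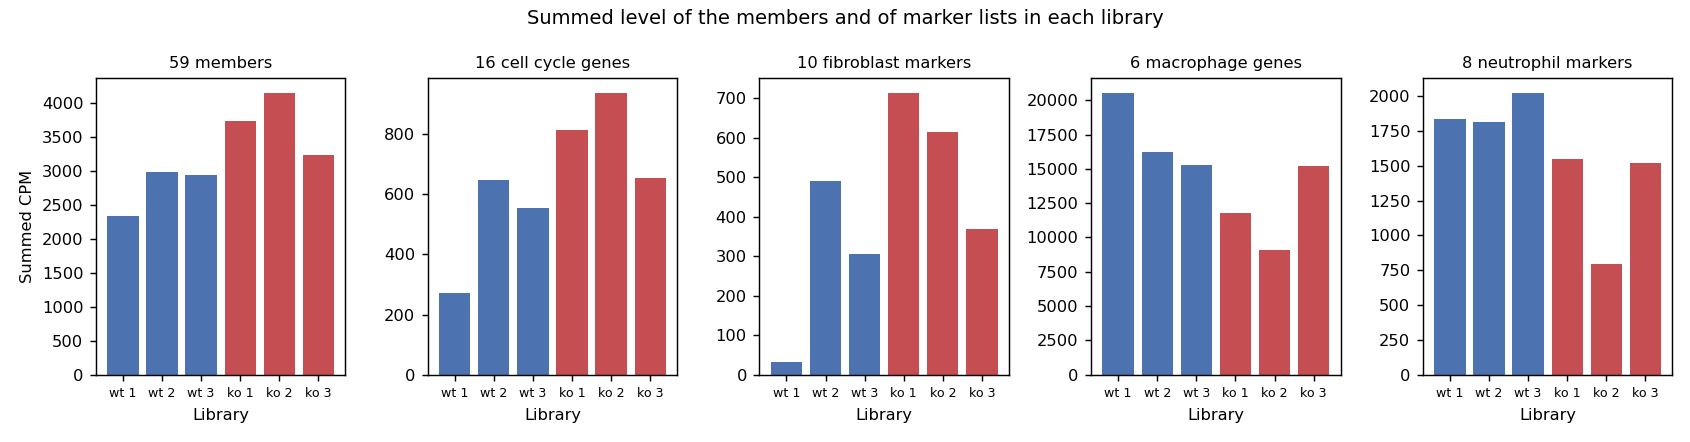
Bars are summed CPM in each library for the 59 members and for 4 marker lists, each panel with its own axis from 0. The members and the cell cycle genes rank the 6 libraries in the same order, from wt replicate 1 up to ko replicate 2. The macrophage genes, a sum that is mostly Lyz2, rank them nearly in reverse.

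Some lists that mark proliferation or cell types ranked the libraries much as the members did, and others did not. The summed level of the members was 2336, 2978 and 2937 CPM in the wt libraries and 3733, 4149 and 3236 CPM in the ko libraries. The 16 cell cycle genes summed to 273, 648 and 555 CPM against 815, 939 and 654 CPM, which puts the 6 libraries in the same order as the members do. The 6 macrophage genes summed to 20561, 16235 and 15254 CPM against 11755, 9110 and 15227 CPM, nearly the reverse order. Most of this sum was Lyz2, at 14144 CPM in wt replicate 1 and 5667 CPM in ko replicate 2. All 6 had a lower estimate, from -0.74 for Csf1r to -0.09 for Ptprc. Ptprc did not follow the order of the sum, with 957, 972 and 1393 CPM in the wt and 1001, 928 and 1189 CPM in the ko libraries. The 10 fibroblast markers ranged from 32.7 to 491 CPM in the wt and from 369 to 715 CPM in the ko libraries, the 7 T cell markers in the table from 22.4 to 102 and from 79.3 to 220 CPM, the 8 neutrophil markers from 1817 to 2025 and from 797 to 1552 CPM, the 7 epithelial or carcinoma markers in the table from 36.1 to 138 and from 129 to 192 CPM and the 6 endothelial markers from 51.1 to 65.5 and from 56.7 to 61.5 CPM. The sum of the neutrophil markers was thus lower in every ko library than in every wt library. Of the 8 single neutrophil markers this held for 5, against 12.6% of all genes tested, and the groups of S100a8 and S100a9 overlapped. For the sums of the fibroblast, T cell, epithelial or carcinoma and endothelial markers the groups overlapped. Outside wt replicate 1 the epithelial or carcinoma sum was mostly Krt8 (log2 fold change 1.25). Krt18 (0.76) had a higher estimate too, while Cdh1 (-0.41) and Krt7 (-1.03) had lower ones. No marker in these lists was at 0 in all 6 libraries. The part of proliferation and of other cell types in the differences of the members was not tested.

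**Figure D2:**
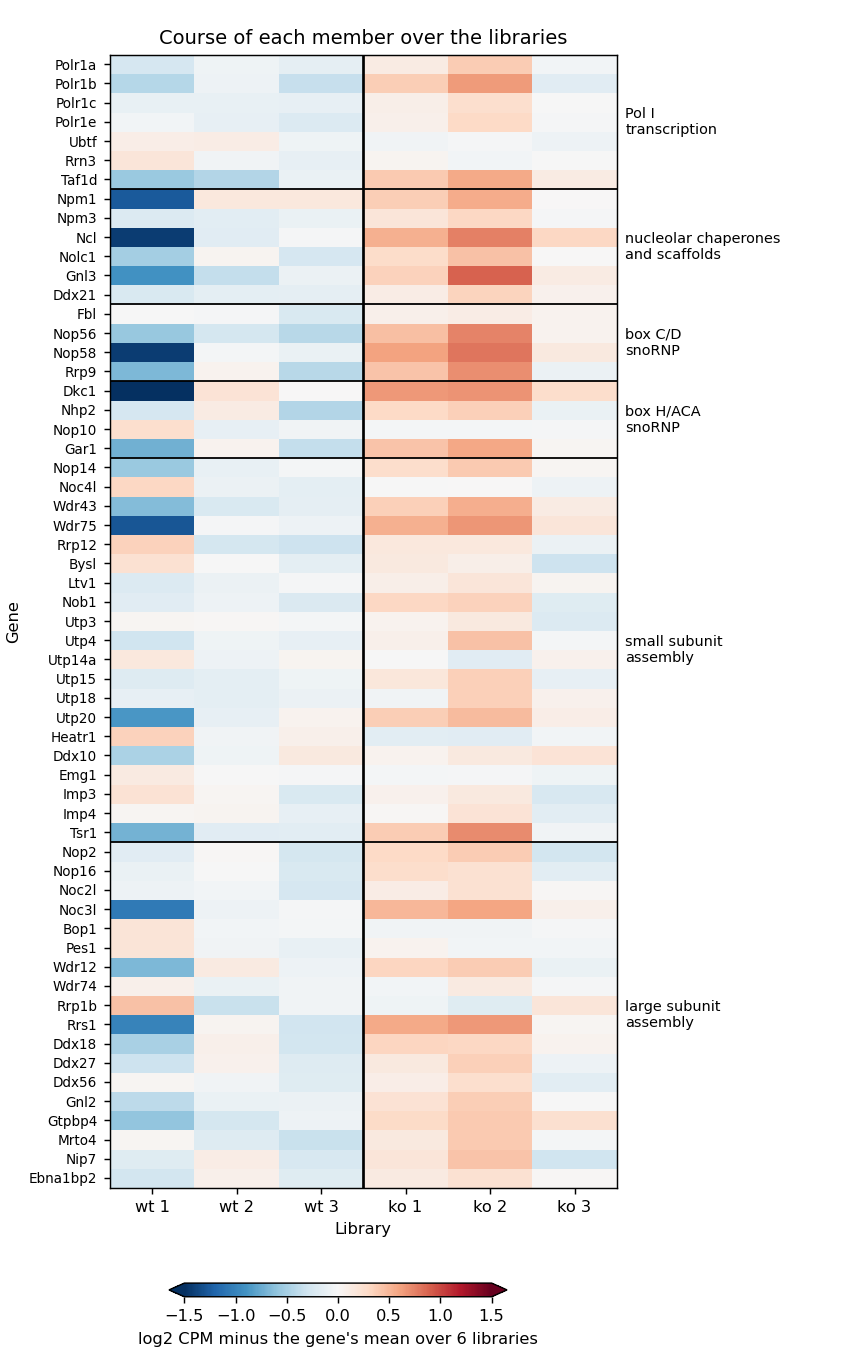
Each row is a member and each column a library, and the color gives log2 CPM minus the gene's mean over the 6 libraries, with colors ending at 1.5 below and above 0. Horizontal lines separate the 6 roles. The lowest values are those of Dkc1, Nop58, Ncl, Wdr75 and Npm1 in wt replicate 1, and 43 of 59 genes have their highest value in ko replicate 2.

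The plot of the course over the libraries shows that the members did not move as a block. ko replicate 2 held the highest value of 43 members, against 25.1% of all genes tested, and the median member there stood 0.42 log2 units above the median of the other 5 libraries. The same median was 0.24 in ko replicate 1, 0.02 in ko replicate 3, -0.08 in wt replicate 2, -0.19 in wt replicate 3 and -0.24 in wt replicate 1. wt replicate 1 held the lowest value of 31 members, against 33.5% of all genes tested, and the highest value of 12 others. In wt replicate 1, 8 members were more than 2-fold below the median of the other libraries, against 17.2% of all genes tested. The SD of log2 CPM within the wt group had a median of 0.19 over the members and of 0.29 over all genes tested, and within the ko group 0.21 for both.

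**Figure D3:**
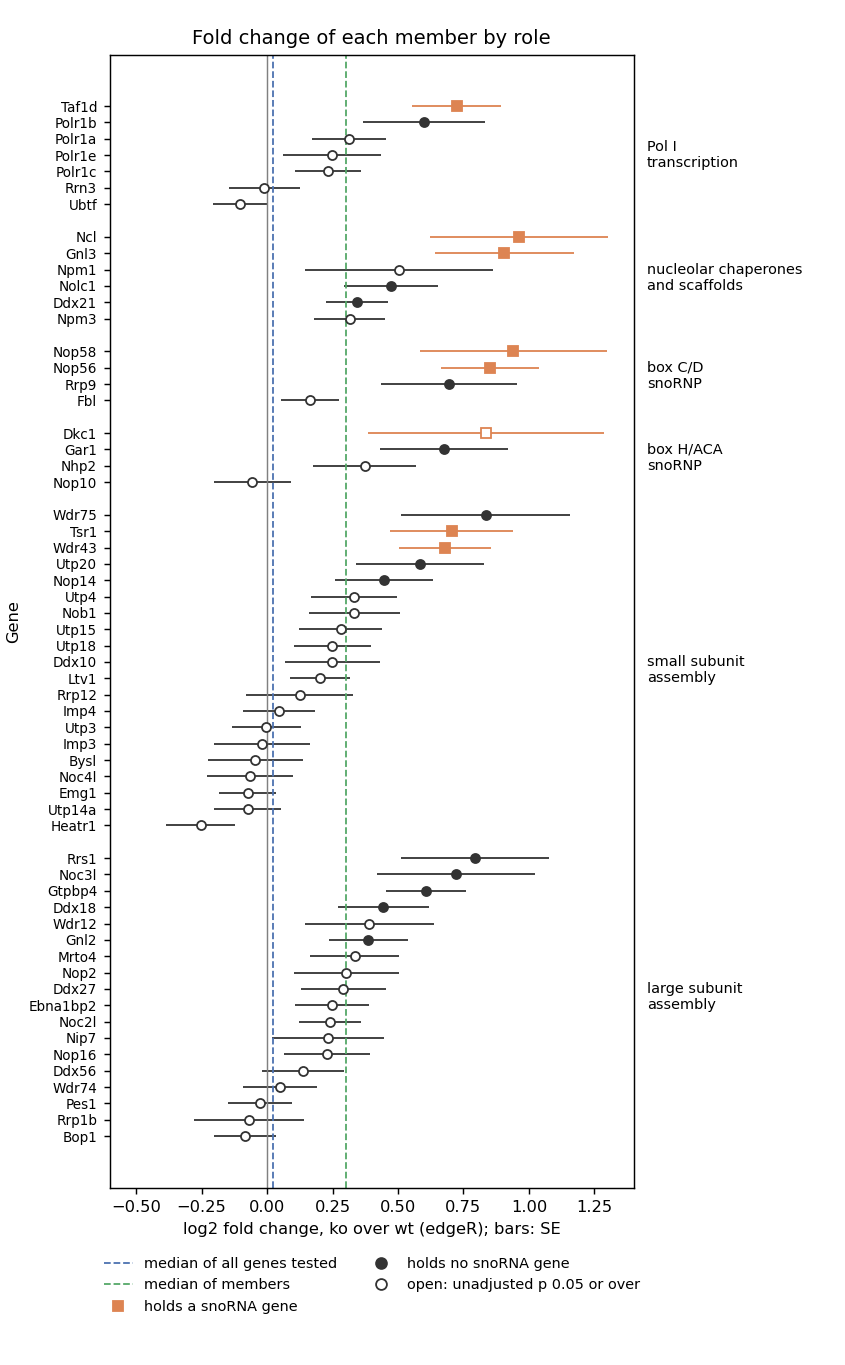
Each point is the edgeR log2 fold change of a member, ko over wt, with its SE, sorted within its role. Filled points have an unadjusted p under 0.05, and squares mark the 8 members that hold a snoRNA gene, which lie between 0.68 and 0.96. The dashed lines mark the median of all genes tested (0.02) and of the members (0.30).

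Estimates of the Pol I transcription genes differed from each other. Of the 7, 5 had a higher and 2 a lower estimate, 2 (Taf1d and Polr1b) had an unadjusted p under 0.05, and the median log2 fold change was 0.25. Without wt replicate 1 the median was 0.26. Taf1d, a subunit of the SL1 factor that brings Pol I to the rRNA promoter, was at 35.8, 38.9 and 48.9 CPM in the wt libraries and at 69.0, 77.9 and 57.4 CPM in the ko libraries. The groups did not overlap, and the log2 fold change was 0.72 ± 0.17 with an unadjusted p of 0.00315 and an adjusted p of 0.328 by edgeR, and an adjusted p of 0.0382 by DESeq2. Polr1b, the second largest subunit of the Pol I enzyme, was at 11.7, 15.1 and 12.5 CPM in the wt and at 20.6, 24.8 and 14.1 CPM in the ko libraries, with overlap at ko replicate 3 (log2 fold change 0.60 ± 0.23, unadjusted p 0.0342 by edgeR). The largest subunit, Polr1a, was at 42.2, 48.4 and 45.8 CPM in the wt and at 54.9, 65.5 and 49.0 CPM in the ko libraries, a log2 fold change of 0.31 ± 0.14. Polr1c, a subunit that Pol I shares with Pol III, was at 28.4, 28.5 and 28.1 CPM against 32.7, 36.6 and 30.6 CPM, a log2 fold change of 0.23 ± 0.13. The groups did not overlap for Polr1a or for Polr1c, and neither had an unadjusted p under 0.05. Ubtf, which encodes the rDNA-binding factor UBF, had a lower estimate, with 83.9, 84.1 and 74.6 CPM in the wt and 74.9, 77.2 and 74.0 CPM in the ko libraries, and its groups overlapped (log2 fold change -0.10 ± 0.11).

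All 6 nucleolar chaperones and scaffolds had a higher estimate, 4 of them with an unadjusted p under 0.05 (Ncl, Nolc1, Gnl3 and Ddx21), and their median log2 fold change was 0.49. Without wt replicate 1 the median was 0.33. Ncl had the largest value of all members. It was at 174, 414 and 461 CPM in the wt libraries and at 677, 787 and 581 CPM in the ko libraries, so that the groups did not overlap and wt replicate 1 was far below the rest. The log2 fold change was 0.96 ± 0.34 with an unadjusted p of 0.0234 and an adjusted p of 0.328 by edgeR, and it was 0.64 without wt replicate 1, with an unadjusted p of 0.00548. Gnl3 encodes nucleostemin, a nucleolar GTP-binding protein of dividing and stem cells. It was at 18.7, 27.5 and 33.0 CPM in the wt and at 44.9, 65.1 and 38.2 CPM in the ko libraries, without overlap (log2 fold change 0.91 ± 0.27). The helicase gene Ddx21 was at 119, 126 and 127 CPM against 151, 176 and 146 CPM, also without overlap (log2 fold change 0.34 ± 0.12). Npm3, the relative of Npm1 in the nucleoplasmin family, lacked the low value of Npm1 in wt replicate 1. Its levels were 25.4, 26.1 and 27.3 CPM in the wt and 33.0, 36.2 and 28.7 CPM in the ko libraries. The log2 fold change was 0.32 ± 0.14 with an unadjusted p of 0.0521. The ratio of deposited FPKM of Npm1 over Npm3 was 2.81 in wt replicate 1 and between 5.99 and 7.32 in the other 5 libraries.

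**Figure D4:**
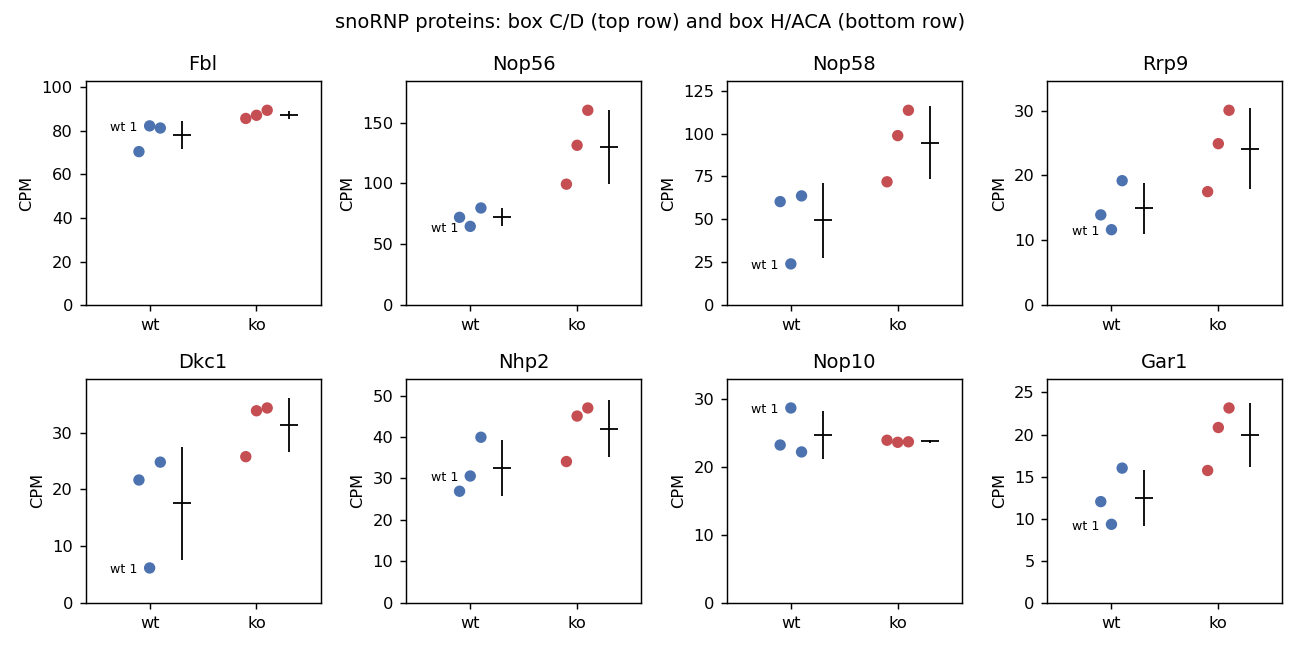
Points are CPM of the 8 snoRNP proteins in the wt (left, blue) and ko (right, red) libraries, the cross-bar is the mean and the line the SD of 3 libraries, and the point of wt replicate 1 is named. Dkc1 and Nop58 are lowest in wt replicate 1 by a wide gap, while Fbl and Nop10 span narrow ranges in both groups.

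The snoRNP proteins work as fixed sets of partners, yet the estimates of partners differed. The differences between partners were not tested. A box C/D particle holds FBL, which methylates the ribose of rRNA, with NOP56 and NOP58, and RRP9 is specific to the particle of the U3 snoRNA, which takes part in cleavage. All 4 genes had a higher estimate, 3 with an unadjusted p under 0.05 (all but Fbl), and the median log2 fold change was 0.77. Without wt replicate 1 the median was 0.57. Nop56 had the smallest p of all members. It was at 64.8, 79.9 and 72.2 CPM in the wt libraries and at 131, 160 and 99.4 CPM in the ko libraries. The groups did not overlap, and wt replicate 1 was close to its group. The log2 fold change was 0.85 ± 0.19, with an unadjusted p of 0.00218 and an adjusted p of 0.328 by edgeR, and an adjusted p of 0.0211 by DESeq2. Nop58 was at 24.1, 63.7 and 60.4 CPM in the wt and at 98.8, 114 and 71.9 CPM in the ko libraries, without overlap (log2 fold change 0.94 ± 0.36, and 0.61 without wt replicate 1). Rrp9 was at 11.6, 19.2 and 13.9 CPM against 24.9, 30.1 and 17.5 CPM, with overlap (log2 fold change 0.70 ± 0.26). Fbl was at 82.2, 81.2 and 70.4 CPM against 87.0, 89.3 and 85.6 CPM, and although its groups did not overlap, its log2 fold change was only 0.16 ± 0.11. Per length, the ratio of Nop58 over Fbl in deposited FPKM was 0.20 in wt replicate 1, 0.53 and 0.58 in wt replicates 2 and 3, and 0.77, 0.87 and 0.57 in ko replicates 1, 2 and 3.

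A box H/ACA particle holds the pseudouridine synthase dyskerin, the product of Dkc1, with NHP2, NOP10 and GAR1, and the same proteins bind telomerase RNA. Of these 4 genes, 3 had a higher and 1 a lower estimate, and only Gar1 had an unadjusted p under 0.05. Without wt replicate 1 all 4 had a higher estimate, with a log2 fold change of 0.06 for Nop10. Dkc1 was at 6.16, 24.8 and 21.7 CPM in the wt libraries and at 33.9, 34.3 and 25.8 CPM in the ko libraries. The groups did not overlap, but wt replicate 1 lay at 0.239 of the median of the other libraries. The log2 fold change was 0.84 ± 0.45 with an unadjusted p of 0.103 by edgeR, and without wt replicate 1 it was 0.43 with an unadjusted p of 0.0346. Nop10 was at 28.7, 22.2 and 23.2 CPM in the wt and at 23.6, 23.7 and 23.9 CPM in the ko libraries (log2 fold change -0.06 ± 0.15), so that its highest value was in the library where Dkc1 was lowest. The FPKM ratio of Dkc1 over Nop10 was 0.0531 in wt replicate 1, 0.276 and 0.231 in wt replicates 2 and 3, and 0.355, 0.359 and 0.266 in the ko libraries. Gar1 was at 9.34, 16.0 and 12.0 CPM against 20.8, 23.2 and 15.7 CPM (log2 fold change 0.68 ± 0.24), and Nhp2 at 30.6, 39.9 and 26.9 CPM against 45.0, 47.0 and 34.1 CPM (log2 fold change 0.37 ± 0.19). The groups overlapped for both genes.

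The 20 small subunit assembly genes were the most divided role. Their estimates were higher for 13 and lower for 7, with 5 at an unadjusted p under 0.05 (Nop14, Wdr43, Wdr75, Utp20 and Tsr1), a median log2 fold change of 0.23 and a range from -0.25 to 0.83. Apart from Heatr1, the lower estimates lay between -0.07 for Utp14a and -0.0026 for Utp3. Without wt replicate 1, 17 of the 20 estimates were higher and the median was 0.20. WDR43, WDR75 and HEATR1 are parts of the same early complex, which binds the start of the nascent pre-rRNA and is also needed for Pol I transcription. Their genes lay towards both ends of the range of this role. They were named by p, level and likeness to Npm1, not as the whole complex. Utp4 (log2 fold change 0.33 ± 0.16) and Utp15 (0.28 ± 0.16) lay between Heatr1 and Wdr43. Wdr43 was at 40.8, 54.7 and 58.3 CPM in the wt and at 82.2, 94.0 and 69.9 CPM in the ko libraries (log2 fold change 0.68 ± 0.18, unadjusted p 0.00545 by edgeR). Wdr75 was at 11.1, 26.7 and 25.6 CPM against 39.3, 43.0 and 30.7 CPM (log2 fold change 0.83 ± 0.32, and 0.52 without wt replicate 1). Heatr1 had the lowest estimate of all members, with 131, 99.8 and 108 CPM in the wt and 92.8, 91.5 and 100.3 CPM in the ko libraries (log2 fold change -0.25 ± 0.13, unadjusted p 0.0956 by edgeR). The ko libraries were all above the wt libraries for Wdr43 and Wdr75, and the groups of Heatr1 overlapped at ko replicate 3. Utp20, a very large scaffold protein of the small subunit precursor, was at 18.1, 30.5 and 34.5 CPM against 42.9, 46.3 and 35.5 CPM (log2 fold change 0.59 ± 0.24), without overlap. Without wt replicate 1 its log2 fold change was 0.35.

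Of the 4 small subunit genes with the highest mean FPKM, Wdr43 is described above, and the other 3 had estimates between -0.07 and 0.20. Emg1 was at 59.4, 53.5 and 53.2 CPM in the wt and at 53.0, 53.4 and 51.5 CPM in the ko libraries (log2 fold change -0.07 ± 0.11). Utp3 was at 41.0, 40.5 and 39.4 CPM against 41.5, 44.4 and 34.7 CPM (log2 fold change -0.0026 ± 0.13). Ltv1, whose product joins the late small subunit precursor, was at 42.8, 46.6 and 48.8 CPM against 52.3, 56.2 and 50.7 CPM (log2 fold change 0.20 ± 0.11). Only Ltv1 of these 3 had groups that did not overlap, and none had an unadjusted p under 0.05. Utp14a was at 47.3, 40.2 and 43.5 CPM against 42.3, 37.7 and 44.4 CPM (log2 fold change -0.07 ± 0.13). For Rrp12, whose product takes part in the export of both subunits, the estimate rested on wt replicate 1, where it was 34.9 CPM against 22.8 and 22.1 CPM in the other wt libraries and 30.5, 30.7 and 25.7 CPM in the ko libraries. Its log2 fold change was 0.12 ± 0.21 over 6 libraries and 0.36 without wt replicate 1, with an unadjusted p of 0.0335.

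Of the 18 large subunit assembly genes, 15 had a higher and 3 a lower estimate, with 5 at an unadjusted p under 0.05 (Noc3l, Rrs1, Ddx18, Gnl2 and Gtpbp4) and a median log2 fold change of 0.27. Without wt replicate 1 the median was 0.22. Gtpbp4, which encodes the nucleolar GTPase NOG1, had the third smallest p of all members. It was at 37.0, 46.6 and 53.0 CPM in the wt and at 68.4, 73.7 and 66.0 CPM in the ko libraries, without overlap. The log2 fold change was 0.61 ± 0.15 with an unadjusted p of 0.00468 and an adjusted p of 0.328 by edgeR. Noc3l was at 5.54, 11.0 and 11.5 CPM against 16.4, 17.5 and 12.3 CPM (log2 fold change 0.72 ± 0.30, and 0.45 without wt replicate 1). Its partner Noc2l was at 107, 109 and 94.8 CPM against 121, 132 and 114 CPM (log2 fold change 0.24 ± 0.12). The groups did not overlap for either gene. Mrto4, related to the stalk protein of the ribosome, was at 25.8, 22.0 and 20.0 CPM against 27.8, 33.0 and 24.6 CPM (log2 fold change 0.33 ± 0.17).

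PES1, BOP1 and WDR12 form the PeBoW complex, which is needed for maturation of large subunit rRNA. Pes1 was at 88.6, 74.4 and 71.9 CPM in the wt and at 80.3, 75.2 and 75.1 CPM in the ko libraries (log2 fold change -0.03 ± 0.12). Bop1 was at 52.8, 44.8 and 45.3 CPM against 44.5, 44.6 and 45.7 CPM (log2 fold change -0.08 ± 0.12). Both genes were highest in wt replicate 1 and flat over the other 5 libraries, while Wdr12, the third partner, had a log2 fold change of 0.39 ± 0.25 and its lowest value in wt replicate 1. Rrp1b was also highest in wt replicate 1, with 71.4, 41.8 and 50.6 CPM in the wt and 50.01, 46.4 and 59.6 CPM in the ko libraries (log2 fold change -0.07 ± 0.21). Under scaling by total counts alone, which moved the median log2 fold change of all genes to 0.17, the estimates of Ubtf, Nop10, Emg1, Utp3, Utp14a, Pes1, Bop1 and Rrp1b were above 0, and of the 59 members only Heatr1 kept a lower one.

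**Figure D5:**
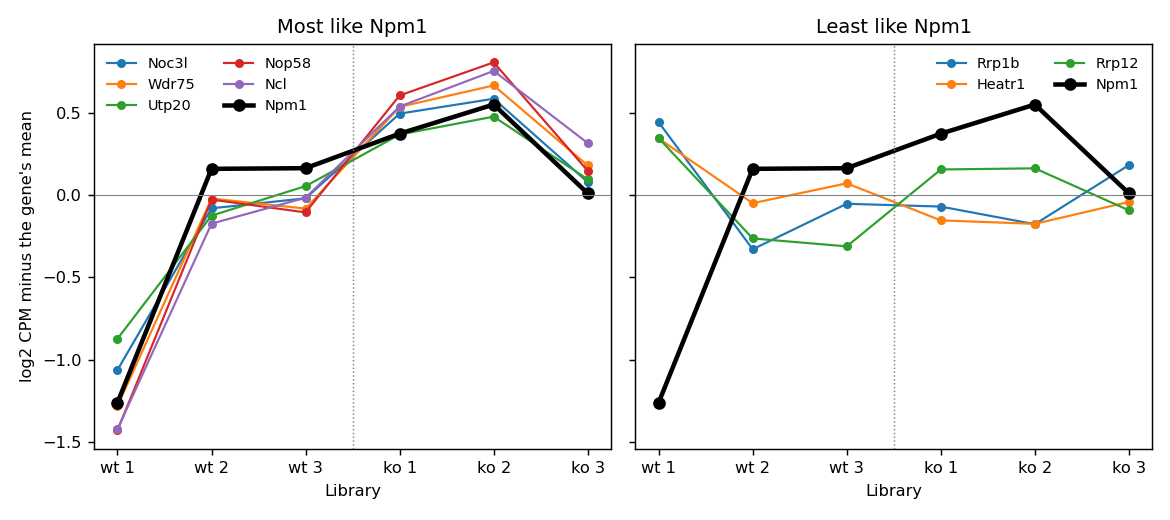
Lines link the log2 CPM of a gene, minus its own mean, over the 6 libraries, with Npm1 in black. The lines only guide the eye, since libraries of a group have no order. The 5 members on the left share the low value of Npm1 in wt replicate 1, and the 3 on the right have their highest value there.

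The course of each member was set beside that of Npm1 by the root mean square (RMS) difference of log2 CPM, each gene centred on its own mean. Over the 6 libraries the median RMS difference to Npm1 was 0.48 for the 58 other members and 0.67 for all genes tested. Noc3l (0.16), Wdr75 (0.16), Utp20 (0.21), Nop58 (0.21) and Ncl (0.23) were most like Npm1, and Rrp1b (0.81), Heatr1 (0.76) and Rrp12 (0.73) were least like it. Npm1 spanned 1.81 log2 units over 6 libraries and 0.54 without wt replicate 1, so that this library set most of the likeness. Without it the median RMS difference was 0.15 for members and 0.30 for all genes tested, and the 5 members most like Npm1 were Utp15, Ddx56, Wdr12, Polr1a and Gnl2. None of these 5 was among the 5 over all 6 libraries. Of all genes tested, Tipin (RMS difference 0.0860), Mettl4 (0.0909), Tmtc3 (0.0954), Gm14681 (0.0973) and Alg6 (0.102) were most like Npm1 over 6 libraries, and none is a member. Their ranks without wt replicate 1 were 248, 120, 100, 271 and 208 of 13883. Tipin, a protein of the replication fork, was at 5.17, 12.3 and 14.1 CPM in the wt and at 16.97, 19.1 and 13.1 CPM in the ko libraries.

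The 8 members that hold snoRNA genes, whose sequences are given in part above, had log2 fold changes from 0.68 to 0.96 with a median of 0.84. For all 8 every ko library was above every wt library, which held for 13.3% of all genes tested. The other 51 members had a median of 0.25, and 16 of them had groups that did not overlap in this direction. Summed over the 8 hosts the level was 384, 732 and 785 CPM in the wt libraries and 1180, 1385 and 974 CPM in the ko libraries, and summed over the others 1952, 2246 and 2152 CPM against 2554, 2764 and 2261 CPM. Without wt replicate 1 the medians were 0.62 for the hosts and 0.23 for the others. Beyond the members, 196 other protein-coding genes that hold a snoRNA were tested and had a median log2 fold change of 0.08, with 120 higher estimates. Of these 196, 46 had every ko library above every wt library and 15 had the reverse. The shares over all genes tested were 13.3% and 12.6%. Since the 8 hosts were singled out after their values had been seen, no test was made. Of the 8, Taf1d, Gnl3, Nop56, Dkc1 and Tsr1 overlap another protein-coding gene, as do 12 further members, and whether the counting used strand is not given in the sources used here.

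The RefSeq promoter table of GRCm38.p6, which gives 250 bases before and 50 after each transcription start, held windows for 53 of the 59 members. The E-box CACGTG, the site bound by MYC and related factors, was found in windows of 10 members, or 18.9% of the 53, against 8.09% of all genes in the table and 11.4% of the genes tested here. The ETS motif CCGGAAG, searched on both strands, was found for 21 members, or 39.6%, against 9.93% of all genes in the table and 19.2% of the genes tested, and the NRF1 motif GCATGCGC, also on both strands, for 2 members, or 3.77%, against 3.05% and 5.57%. None of these 3 motifs contains another, and the E-box reads the same on both strands. The members with an E-box had a median log2 fold change of 0.28 and the 43 without one 0.31. At an unadjusted p under 0.05 by edgeR, 3 of the 10 and 15 of the 43 were higher, against 6.90% of all genes tested. Every ko library was above every wt library for 6 of the 10 and 16 of the 43, against 13.3%. Without wt replicate 1 this held for 8 and 20, against 16.6%. The difference between these sets was not tested. The windows of Wdr43 and Tsr1 are shown because both are snoRNA hosts and hold an E-box, which is in capitals near the end of each, and Tsr1 has an ETS motif in capitals beside it.
Wdr43 (chr17:71615965-71616264, GRCm38.p6, plus strand): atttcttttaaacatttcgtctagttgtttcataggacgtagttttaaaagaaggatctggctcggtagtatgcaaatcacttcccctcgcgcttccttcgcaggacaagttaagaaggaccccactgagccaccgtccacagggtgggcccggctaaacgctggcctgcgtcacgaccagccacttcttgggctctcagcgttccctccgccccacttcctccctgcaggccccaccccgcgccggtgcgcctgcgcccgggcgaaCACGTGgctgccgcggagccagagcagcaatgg
Tsr1 (chr11:74897830-74898129, GRCm38.p6, plus strand): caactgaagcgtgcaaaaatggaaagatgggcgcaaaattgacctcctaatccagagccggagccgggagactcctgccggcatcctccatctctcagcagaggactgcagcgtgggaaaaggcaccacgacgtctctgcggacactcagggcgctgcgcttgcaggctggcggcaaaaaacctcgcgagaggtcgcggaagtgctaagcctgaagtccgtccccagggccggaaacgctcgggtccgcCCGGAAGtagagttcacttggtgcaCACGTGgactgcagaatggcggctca
In both windows the E-box lies in the last 50 bases, after the annotated start of transcription. A match describes these letters only and says nothing of what is bound there.

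Other genes of the pathway were also mostly higher by their estimates. A list of 98 other ribosome biogenesis genes, all of them tested, had 76 higher and 22 lower estimates and a median log2 fold change of 0.16. At an unadjusted p under 0.05 by edgeR, 15 were higher and 0 lower, where 6.90% and 8.31% of all genes tested were. None was called after adjustment by edgeR. Their single values ran from -0.46 to 0.92, and without wt replicate 1 their median was 0.19 beside 0.26 for the members. The difference between the 2 lists was not tested. The 3 with the smallest p among the higher ones were Ftsj3 (log2 fold change 0.61 ± 0.18), Lyar (0.67 ± 0.20) and Rpf1 (0.57 ± 0.17). Ftsj3, a methyltransferase gene of pre-rRNA processing, was at 31.7, 45.8 and 45.4 CPM in the wt and at 66.1, 68.1 and 52.9 CPM in the ko libraries. Among the lower ones, Tcof1 (-0.32 ± 0.14), Nop9 (-0.46 ± 0.21) and Nop53 (-0.27 ± 0.15) had the smallest p. Tcof1, which encodes treacle, a factor of Pol I transcription and snoRNP function, was at 98.0, 73.1 and 74.6 CPM against 63.6, 65.0 and 68.4 CPM. Myc, a transcription factor known for driving ribosome biogenesis genes, was at 60.5, 261 and 178 CPM in the wt and at 401, 387 and 241 CPM in the ko libraries (log2 fold change 1.05 ± 0.47, unadjusted p 0.0609 by edgeR), with overlap at ko replicate 3.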

How the data were processed

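Transcripts of 3 wt and 3 ko libraries had been sequenced. The authors deposited raw counts of reads on each gene as whole numbers, and FPKM of the same genes. The deposited FPKM equal these counts over the library total and 1 length per gene, within 0.1% for 11473 of 11473 genes checked. The aligner, the counting tool and the annotation are not given in the sources used here, and the submitters' processing notes name the build mm10. Groups were taken from the titles. All genes were fitted with edgeR 4.0.16 under R 4.3.3 (filterByExpr, TMM factors, glmQLFit, glmQLFTest), with Benjamini-Hochberg adjustment and a threshold of 0.05. An SE is the size of the log2 fold change over the root of its F statistic. log2 CPM used a prior count of 2. The fit was run on simulated counts with known changes. Their spread was set low so that the changes could be found, and no simulated library stood apart. That run checks the code and says nothing of how the fit performs at the spread of these data. DESeq2 1.42.0 and limma 3.58.1 gave alternatives. Gene places and snoRNAs came from GENCODE vM21. The paper names no tool for its test on the sequenced RNA, so the test was chosen to suit counts.

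The members and lists were chosen with earlier results of these data known. Named with values are Npm1 and Npm3, in each role the 4 members with the highest mean FPKM, the 5 members with the smallest p in each direction, the 5 members most and the 3 least like Npm1, the 5 genes of all tested most like Npm1, Myc and, from the other ribosome biogenesis genes, the 3 with the smallest p in each direction. Wdr12, Polr1b, Utp4, Utp15 and the snoRNA hosts outside this rule were named after their values were seen.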

Additional observations from a re-analysis of the deposited data

How the results depend on the processing

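Of 33 members named by the rule, 24 kept the direction of their log2 fold change under all 18 alternatives, Npm1 among them. The other 9 had estimates near 0. With total counts alone, log2 fold changes were 0.054 for Ubtf, 0.097 for Nop10, 0.081 for Emg1, 0.16 for Utp3, 0.13 for Pes1, 0.068 for Bop1, 0.072 for Utp14a and 0.074 for Rrp1b, and the members had a median of 0.47 and 31 higher at an unadjusted p under 0.05. With limma on log2 FPKM plus 1 they were 0.045 for Ubtf, 0.098 for Nop10, 0.076 for Emg1, 0.13 for Utp3, 0.12 for Pes1, 0.065 for Bop1, 0.071 for Utp14a and 0.095 for Rrp1b. With limma on log2 FPKM plus 0.1 they were 0.049 for Ubtf, 0.10 for Nop10, 0.077 for Emg1, 0.14 for Utp3, 0.13 for Pes1, 0.069 for Bop1, 0.074 for Utp14a and 0.11 for Rrp1b, with 31 members higher. These 3 settings scale by total counts and raise the median of all genes. It was 0.02 in the edgeR fit with TMM factors, and 0.17, 0.092 and 0.16 in these settings, in the order given. Upper quartile scaling gave 0.037 for Utp3 and 0.012 for Pes1, and at least 10 counts in every library 0.028 for Utp3 and 0.0044 for Pes1.

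Leaving out libraries gave from -0.13 to 0.061 for Nop10, from -0.088 to 0.10 for Utp3, from -0.10 to 0.084 for Pes1, from -0.23 to 0.17 for Rrp1b and from -0.010 to 0.44 for Rrp12. Members higher at an unadjusted p under 0.05 numbered from 5 without ko replicate 2 to 28 without wt replicate 1 and ko replicate 3. There were 7 without ko replicate 1. Of all genes tested, 669 of 14070, 3290 of 14174 and 775 of 14122 had such a p in either direction in those settings. Members whose groups did not overlap in either direction numbered from 25 to 53. Non-overlap also became more common over all genes when libraries were left out. Every ko library was above every wt library for 13.3% of genes over 6 libraries and for 26.9% without ko replicate 3. Without wt replicate 1 the likeness to Npm1 had a median of 0.15. DESeq2 called 108 genes and 2 members over 6 libraries and 1320 genes and 12 members over 4, where it gave 0.023 for Nop10, 0.069 for Utp3, 0.052 for Pes1 and 0.028 for Rrp1b. DESeq2 without wt replicate 1, added after seeing the data, called 75 genes and no member and gave 0.040 for Nop10, 0.047 for Pes1 and 0.15 for Rrp1b. edgeR called 0 genes over 6 libraries, with 2112 at an unadjusted p under 0.05. Apart from the scaling, the cause was not tested.

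Whether same-numbered libraries were paired is not given in the labels. The deviations of same-numbered libraries from their group means correlated at -0.24, 0.06 and -0.34. These values cannot decide it, since deviations within a group sum to 0 and wt replicate 1 stood far apart. A block for the replicate number gave 0 called genes by edgeR, 17 members higher at an unadjusted p under 0.05 and a median log2 fold change of 0.29. The lowest count of a member in a library was 197, and the effect of depth was not tested.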
